A study of Rattus norvegicus with 12 samples.

Results

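The 32 genes described here encode the enzymes of glycolysis, lactate dehydrogenase and the enzymes of glycogen metabolism. They were taken by gene symbol from a written list. No measured value enters that rule, but the list was written with earlier results of these data known. All 32 were found among the 21239 genes with counts. By role, 2 genes phosphorylate glucose, 10 act in upper glycolysis, 7 in lower glycolysis and 2 in lactate formation, while 5 build glycogen and 6 break it down or control its breakdown. Levels are given as CPM, the expected count of a gene scaled to a common library total. CPM does not account for transcript length, so levels were compared between libraries. Ratios and sums of genes depend on transcript length too, and were likewise read between libraries.

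RNA-seq was performed on left atrial tissue of 12 male rats that formed 4 groups, each of 3 rats and 3 libraries. The normotensive WKY rats and the SHRs, which become hypertensive, received saline (7.5 ml/kg/day). The ARB group comprised SHRs given the angiotensin receptor blocker valsartan (30 mg/kg/day). The ARNI group comprised SHRs given sacubitril/valsartan (60 mg/kg/day), in which valsartan is joined to a neprilysin inhibitor. Treatment lasted 4 weeks, beginning after purchase at an age of 14 weeks, and each rat gave a frozen piece of atrium. For the 6 WKY and SHR libraries, the strain words of the labels contradict the bracketed library names, and groups were assigned by the library names. Under the other reading, ARB and ARNI against WKY would be drug against saline in SHRs. In the drug groups the strain label is WKY although the phenotype label is SHR, and these rats were taken as SHRs from the methods of the study.

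The labelled tissue was checked against light chains of myosin, of which Myl4 and Myl7 belong to the atrium and Myl2 and Myl3 to the ventricle. The share of the ventricular pair in the summed CPM of these 4 genes is called the ventricular share below. It was at least 0.998 in the WKY libraries, where Myl7 was at 0.889 to 15.9 CPM, so atrial light chains were nearly absent from tissue labelled left atrium. Among the 9 libraries of SHRs it was 0.998 in ARNI replicate 2, 0.432 in SHR replicate 2, 0.440 in ARB replicate 3 and at most 0.0108 in the other 6. The WKY group and the SHR group therefore differed in chamber markers as well as in strain, and for the values below these differences cannot be told apart. Library totals ranged from 11252361 to 15823525 expected counts, and 3 counts, the upper limit for a gene with a count of 0, equal 0.190 to 0.267 CPM (counting error only). In bulk tissue, fewer cells of a type and less RNA per cell cannot be told apart either.

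Glycolysis splits glucose into pyruvate in the cytosol and yields ATP without oxygen, and lactate dehydrogenase interconverts pyruvate and lactate. The working heart draws most of its ATP from fatty acids but takes up glucose and lactate and holds a glycogen store, which phosphorylase mobilizes on adrenergic demand. Several steps are served by isoenzymes from separate genes. Muscle forms (Pfkm, Pgam2, Eno3, Pygm) dominate in striated muscle, forms named after liver, platelet or brain (Pfkl, Pfkp, Pygl, Pygb) are more widespread, and the heart is rich in the lactate dehydrogenase subunit encoded by Ldhb.

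Between the SHR and WKY groups, 14 of the 32 members passed edgeR's quasi-likelihood test (adjusted p of at most 0.05), 6 of them higher in SHRs and 8 lower. Of all 13794 genes tested, 20.6% passed, with 12.3% higher and 8.26% lower. The 6 higher members were Pfkl, Pfkp, Pgam1, Eno1, Phka1 and Phkg1, and the 8 lower members were Hk1, Pfkfb1, Pfkfb2, Pgm1, Ugp2, Gbe1, Pygl and Phkb. The median log2 change was -0.44 over the members and 0.01 over all genes. With an absolute log2 change of at least 1 required as well, 6 members were DEGs (Pfkp, Eno1, Pfkfb1, Pfkfb2, Ugp2 and Pygl), against 8.89% of all genes. As plain CPM, 7 members lay above WKY in all SHR libraries (33.7% of all genes) and 14 below (15.9%). With the drug groups included, all 9 libraries of SHRs lay above WKY for 7 members (21.9%, against 9.81% of 14452 genes). They lay below WKY for 5 members (15.6%, against 6.57% of genes). The count of called members rested on single libraries. It was 24 without SHR replicate 2 (37.8% of all genes), 9 without SHR replicate 3 (18% of genes) and 1 without SHR replicate 1 (6.86%). Without WKY replicates 1, 2 and 3 in turn it was 1, 1 and 0 (3.51%, 2.93% and 2.96% of genes), the last by edgeR with 17 members at an unadjusted p under 0.05 (28.4% of genes). The share of all genes called was above 20.6% in the first of these fits as well, and below it in the others.

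The members were also fitted against the ventricular share over the 9 libraries of SHRs, with the treatment group in the fit, so that no WKY library entered. The slope is the log2 change from a share of 0 to a share of 1. It passed the test in 17 of 32 members, 14 higher with the share and 3 lower, while 22.4% of all genes passed (12.6% higher, 9.74% lower). The 14 were Pfkm, Pfkfb2, Aldoa, Tpi1, Pgk1, Eno1, Pkm, Ldhb, Pgm1, Ugp2, Gys1, Gbe1, Pygm and Pygb, and the 3 were Pfkp, Pgam1 and Phka1. The median slope was 0.66 over the members and -0.05 over all genes. ARNI replicate 2 alone carried the high end of the share: without it 6 members passed (6.62% of all genes), and with ARB replicate 3 left out as well 0 passed by edgeR (0.0276% of genes), with 14 at an unadjusted p under 0.05 (13% of genes). Without ARNI replicate 1 the count was 9 (13.9% of genes).

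**Figure D1:**
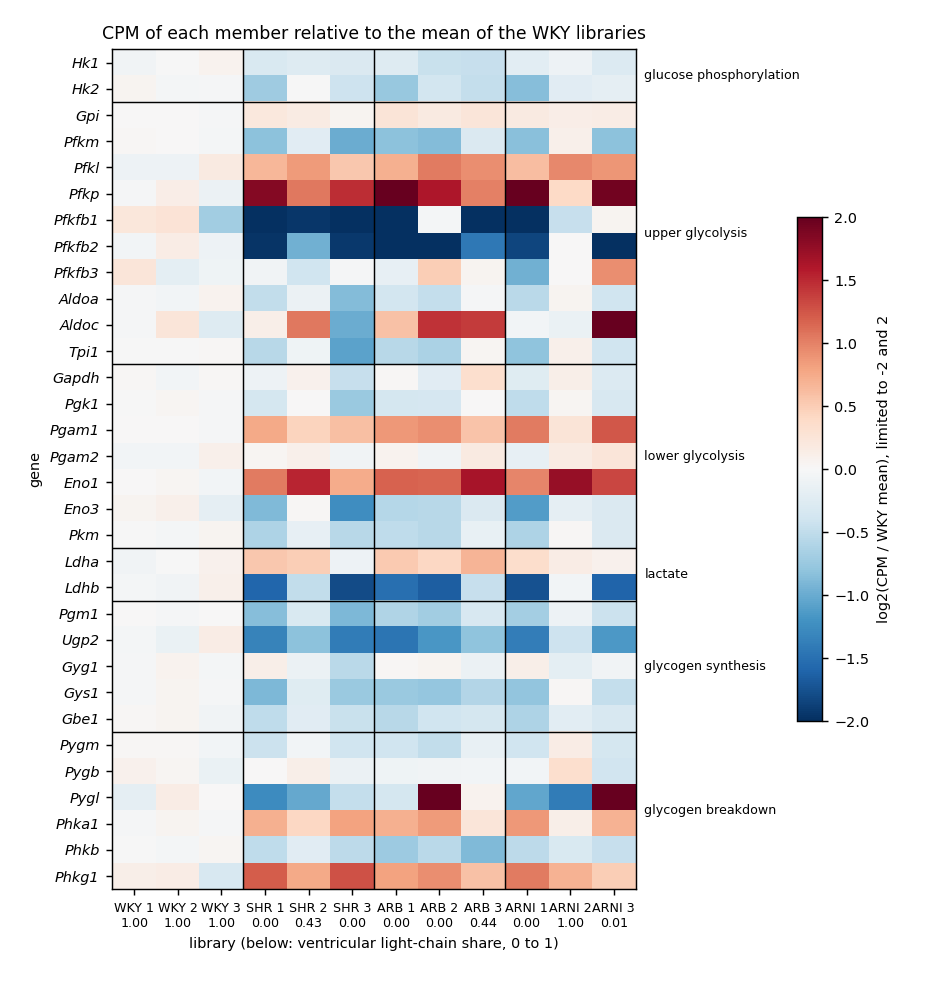
Level of each of the 32 members (rows, by role) in each of the 12 libraries (columns, with the ventricular share under the name) as log2 of CPM over the mean of the 3 WKY libraries, with the color limited to -2 and 2. SHR replicate 2, ARB replicate 3 and ARNI replicate 2 lie closer to the WKY libraries than their group mates do in rows such as Ldhb and Pfkm, whereas the row of Eno1 is above WKY in all 9 libraries of SHRs.

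The order of the libraries by share was followed by the levels of 14 members. In 11 of them (34.4% of members, 6.30% of 14452 genes) CPM in SHR replicate 2 and ARB replicate 3 lay above all 6 libraries of low share and below ARNI replicate 2. In 3 of them (9.38%, against 11.5% of genes) it lay below the 6 libraries and above ARNI replicate 2. These counts share their libraries with the slope and are given as a description.

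The first step of the pathway, phosphorylation of glucose, was read from both hexokinase genes. Hk1, the constitutive form, was at 259 to 285 CPM in WKY and at 221, 227 and 222 CPM in SHR. All 9 libraries of SHRs, at 198 to 254 CPM, lay below the WKY libraries. The log2 change between SHR and WKY was -0.42 (SE 0.11, adjusted p = 0.0365), and the slope on the share was 0.31 (SE 0.14, adjusted p = 0.160). Hk2, the insulin-regulated form of muscle, was at 140.2 to 149 CPM in WKY and at 87.9, 143 and 107 CPM in SHR, and passed neither test (adjusted p = 0.130 and 0.111).

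Phosphofructokinase commits the sugar to glycolysis, and its 3 subunit genes took different courses. Pfkm, the muscle form, was at 872, 867 and 835 CPM in WKY, at 486, 736 and 433 CPM in SHR, at 485, 469 and 702 CPM in ARB and at 482, 922 and 488 CPM in ARNI (replicates 1 to 3). The 6 libraries of low share lay at 433 to 488 CPM, both libraries of middle share lay above them, and ARNI replicate 2 was above every WKY library. The slope on the share was 1.31 (SE 0.17, adjusted p = 0.00291), whereas the difference between SHR and WKY did not pass (log2 change -0.76, SE 0.24, adjusted p = 0.0686).

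Pfkp, the platelet form (NCBI gene 60416), was at 32.3, 36.2 and 30.5 CPM in WKY, at 117, 68.8 and 92.0 CPM in SHR, at 145, 101 and 66.0 CPM in ARB and at 167, 43.7 and 126 CPM in ARNI. It was higher in every library of SHRs than in WKY and lowest among them in the 3 libraries with ventricular light chains. It passed both tests, with a log2 change of 1.35 between SHR and WKY (SE 0.19, adjusted p = 0.00811) and a slope of -1.52 (SE 0.28, adjusted p = 0.00851). Pfkl, the liver form (NCBI gene 25741), was at 29.5, 29.5 and 35.9 CPM in WKY, at 50.4, 56.8 and 46.0 CPM in SHR, at 51.6, 65.1 and 60.3 CPM in ARB and at 48.3, 61.9 and 58.6 CPM in ARNI. Here the groups did not overlap, and ARNI replicate 2 stood with the other SHRs and not with WKY. The log2 change was 0.56 (SE 0.15, adjusted p = 0.0448) and the slope on the share was 0.48 (SE 0.15, adjusted p = 0.0513).

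The Pfkfb genes encode the bifunctional enzymes that make and remove fructose 2,6-bisphosphate, the activator of phosphofructokinase. Pfkfb2 (NCBI gene 24640), the cardiac form, was at 104, 119 and 100.2 CPM in WKY, at 27.7, 55.4 and 28.3 CPM in SHR, at 24.5, 25.2 and 39.9 CPM in ARB and at 30.2, 108 and 26.8 CPM in ARNI. ARNI replicate 2 lay within the WKY range, and the other 8 libraries of SHRs lay below it. The log2 change between SHR and WKY was -1.66 (SE 0.31, adjusted p = 0.0185) and the slope on the share was 2.17 (SE 0.13, adjusted p = 0.000462). Pfkfb1, the liver and muscle form, was at 6.05, 6.27 and 3.20 CPM in WKY and at 0.0762, 1.35 and 0.339 CPM in SHR (log2 change -3.30, SE 0.78, adjusted p = 0.0316). Its lowest library held 1 count, so this estimate rests on few reads. Pfkfb3, the inducible form, overlapped between WKY (23.2 to 31.4 CPM) and SHR (20.1 to 26.1 CPM).

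The remaining genes of upper glycolysis showed no call between SHR and WKY. Aldoa, the muscle aldolase, was at 3256 to 3553 CPM in WKY and at 2415, 3115 and 1851 CPM in SHR, with a slope on the share of 0.91 (SE 0.23, adjusted p = 0.0246). In ARB it was at 2627, 2428 and 3313 CPM and in ARNI at 2319.5, 3501 and 2573 CPM, so the libraries with ventricular light chains were the highest of their groups. Tpi1, triosephosphate isomerase, was at 846 to 867 CPM in WKY, at 580.5, 807 and 407 CPM in SHR, at 579, 551 and 883 CPM in ARB and at 489, 920.5 and 647 CPM in ARNI (slope 1.19, SE 0.26, adjusted p = 0.0170). Gpi, glucose-6-phosphate isomerase, was above WKY (648 to 663 CPM) in all 9 libraries of SHRs (679 to 786 CPM) as plain CPM, but its log2 change after TMM scaling was 0.01 (SE 0.13), so this direction depends on the scaling. Aldoc, the brain aldolase, was at 1.83 to 15.9 CPM over the 12 libraries and passed neither test.

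In lower glycolysis, 1 of the enolase genes, Eno1, was above WKY in every library of SHRs. Eno1 (NCBI gene 24333), the widespread form, was at 314, 320.3 and 300.5 CPM in WKY, at 642, 897 and 523 CPM in SHR, at 706, 702 and 974 CPM in ARB and at 614, 1043 and 783 CPM in ARNI. Every library of SHRs was above every WKY library, and the highest of all was ARNI replicate 2. The log2 change between SHR and WKY was 1.02 (SE 0.24, adjusted p = 0.0304), and the slope on the share had the same sign, 1.01 (SE 0.22, adjusted p = 0.0142). The call against WKY was lost when SHR replicate 1 or any 1 WKY library was left out, with log2 changes of 1.005 to 1.08. Eno1 was among the 23 members whose deposited values were whole numbers in every library, as they are for genes whose reads were not shared out. Whether read alignment contributed to its difference from WKY was not tested.

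Eno3, the muscle enolase, went the other way without a call: it was at 352 to 428 CPM in WKY and at 216, 403 and 168 CPM in SHR (log2 change -0.71, SE 0.35, adjusted p = 0.178). Pgam1, the widespread phosphoglycerate mutase, was at 223, 224 and 219 CPM in WKY, at 375, 304 and 338 CPM in SHR, at 406, 423 and 331 CPM in ARB and at 457, 266 and 526 CPM in ARNI. All libraries of SHRs were above WKY, with ARNI replicate 2 the nearest to it (log2 change 0.47, SE 0.11, adjusted p = 0.0296; slope -0.59, SE 0.15, adjusted p = 0.0292). Pgam2, the muscle form, was at 524 to 698 CPM over all 12 libraries and passed neither test.

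Pgk1 and Pkm, the enzymes that make ATP, followed the share. Pgk1, phosphoglycerate kinase, was at 534 to 562 CPM in WKY, at 428, 547 and 327 CPM in SHR, at 425, 432 and 547 CPM in ARB and at 382, 559.9 and 439 CPM in ARNI (slope 0.85, SE 0.21, adjusted p = 0.0230). Pkm, pyruvate kinase, was at 1408 to 1494 CPM in WKY, at 939, 1288 and 979 CPM in SHR, at 1012, 986 and 1306 CPM in ARB and at 941, 1469 and 1186 CPM in ARNI (slope 0.84, SE 0.17, adjusted p = 0.0131). Gapdh, which is often used as a reference gene, ranged from 4799 to 8370 CPM over the 12 libraries, and its slope did not pass (0.76, SE 0.24, adjusted p = 0.0583).

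Ldhb (NCBI gene 24534), the heart subunit of lactate dehydrogenase, followed the share closely. It was at 4166, 4076 and 4625 CPM in WKY, at 1426, 3063 and 1239 CPM in SHR, at 1503, 1371 and 3108 CPM in ARB and at 1282, 4147 and 1415 CPM in ARNI. SHR replicate 2 and ARB replicate 3 differed by less than the 6 libraries of low share did among themselves, and ARNI replicate 2 lay within the WKY range. The slope was 2.17 (SE 0.24, adjusted p = 0.00220), and the change between SHR and WKY was -1.28 (SE 0.40, adjusted p = 0.0628). Ldha, the muscle subunit, was at 764, 796 and 847 CPM in WKY and at 1162, 1126 and 744 CPM in SHR, so these groups overlapped, and it passed neither test (adjusted p = 0.512 and 0.455).

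**Figure D2:**
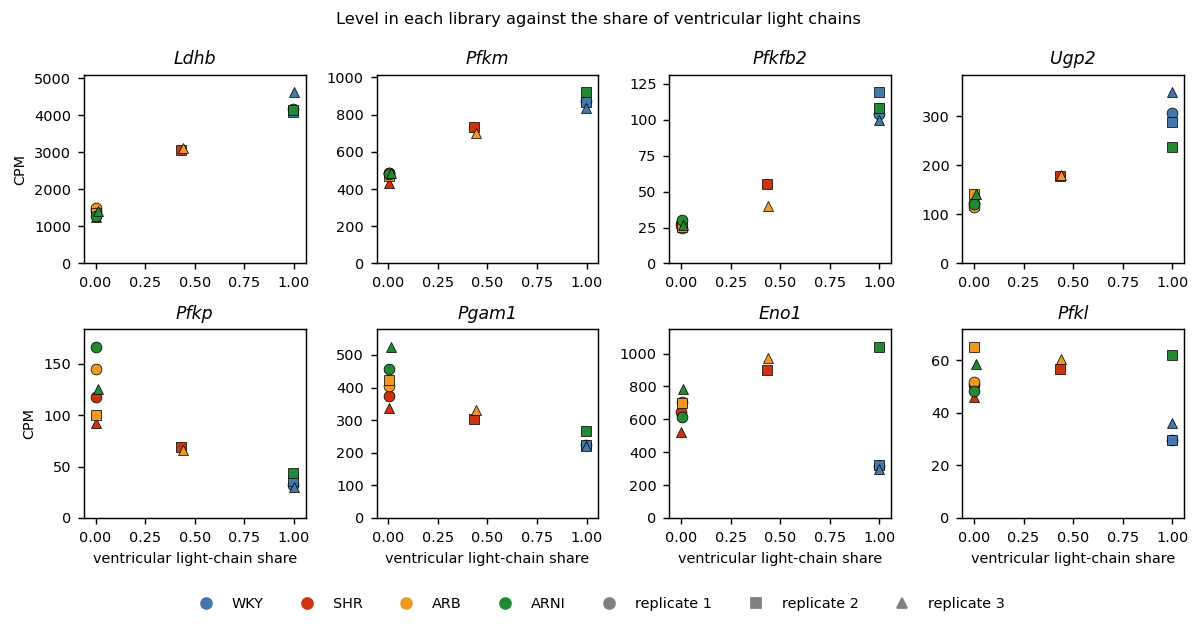
CPM of 8 members (vertical axes, from 0) against the ventricular share (horizontal axes, 0 to 1) in the 12 libraries, with color for group and shape for replicate. For Ldhb, Pfkm, Pfkfb2, Ugp2, Pfkp and Pgam1 the green square at a share of 0.998 (ARNI replicate 2) lies near the WKY libraries, and for Eno1 and Pfkl it lies well above them.

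Promoter windows are shown for 4 members, chosen after their values were seen to show unlike courses. Ldhb and Pfkm rose with the ventricular share, and Pfkp fell with it. Eno1 also rose with the share and was above WKY in every library of SHRs. Each window is the 250 bases before the first listed RefSeq start in build GRCr8, read on the strand of the gene. Capitals mark the hypoxia-response core, searched as ACGTG or GCGTG on both strands, the sequence in which hypoxia-inducible factors bind. The windows are chr4:177177409-177177658 (minus strand) for Ldhb, chr7:131113849-131114098 (plus strand) for Pfkm, chr17:68639563-68639812 (plus strand) for Pfkp and chr5:166002617-166002866 (plus strand) for Eno1.
Ldhb: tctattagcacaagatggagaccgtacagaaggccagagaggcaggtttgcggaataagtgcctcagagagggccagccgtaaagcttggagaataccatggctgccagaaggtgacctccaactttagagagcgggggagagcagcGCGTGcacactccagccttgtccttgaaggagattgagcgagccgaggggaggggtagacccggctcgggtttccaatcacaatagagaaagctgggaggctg
Pfkm: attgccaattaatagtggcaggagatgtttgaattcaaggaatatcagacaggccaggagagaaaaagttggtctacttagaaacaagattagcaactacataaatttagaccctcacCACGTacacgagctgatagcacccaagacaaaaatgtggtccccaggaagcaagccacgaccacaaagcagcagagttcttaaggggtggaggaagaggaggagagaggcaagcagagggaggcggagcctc
Pfkp: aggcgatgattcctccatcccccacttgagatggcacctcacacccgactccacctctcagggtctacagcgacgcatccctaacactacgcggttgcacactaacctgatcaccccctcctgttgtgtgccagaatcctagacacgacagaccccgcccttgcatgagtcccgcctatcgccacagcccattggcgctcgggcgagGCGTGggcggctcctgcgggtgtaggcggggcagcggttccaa
Eno1: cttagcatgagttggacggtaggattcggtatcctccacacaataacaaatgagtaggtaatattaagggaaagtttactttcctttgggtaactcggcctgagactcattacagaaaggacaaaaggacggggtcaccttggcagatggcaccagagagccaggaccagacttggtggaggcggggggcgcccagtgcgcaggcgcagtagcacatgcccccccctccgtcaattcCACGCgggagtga
Each of these 4 windows held 1 core. Of the 31 members with a RefSeq window, 21 (67.7%) held at least 1 core, against 37.9% of 27457 promoters of the same length. Those promoters were not limited to genes with counts in these libraries. The GC box GGGCGG, on either strand, was in 54.8% of members and 32.4% of promoters, and the E-box CANNTG, which overlaps the core in CACGTG, was in 64.5% and 65.2%. The core was found in members that rose with the share, in members that fell and in members that passed no test.

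Glycogen synthesis starts from glucose 1-phosphate, and 3 of the 5 genes grouped here were called lower in SHR than in WKY, as were 8.26% of all genes. These 3 calls, like those of all other lower members, were lost when SHR replicate 1 or any 1 WKY library was left out. Those of Pgm1 and Gbe1 were also lost without SHR replicate 3. Ugp2, which makes UDP-glucose, was at 306, 288 and 349 CPM in WKY, at 124, 179 and 119 CPM in SHR, at 114, 141 and 181 CPM in ARB and at 120.5, 237 and 142 CPM in ARNI. ARNI replicate 2 was the highest of the SHRs and still below all WKY libraries. The log2 change was -1.28 (SE 0.22, adjusted p = 0.0136) and the slope on the share was 1.197 (SE 0.14, adjusted p = 0.00258). Pgm1, phosphoglucomutase, was at 228 to 233 CPM in WKY, at 129, 188 and 125 CPM in SHR, at 152, 143 and 185 CPM in ARB and at 144, 216 and 172 CPM in ARNI. All 9 libraries of SHRs were below WKY, and both tests were passed (log2 change -0.78, SE 0.20, adjusted p = 0.0420; slope 0.85, SE 0.17, adjusted p = 0.0120).

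Gbe1, the branching enzyme, was at 107 to 115 CPM in WKY, at 78.7, 95.2 and 82.3 CPM in SHR, at 75.7, 84.5 and 87.8 CPM in ARB and at 72.5, 96.4 and 89.1 CPM in ARNI. It too was below WKY in all 9 libraries (log2 change -0.52, SE 0.12, adjusted p = 0.0328; slope 0.54, SE 0.13, adjusted p = 0.0187). Gys1, the muscle glycogen synthase, was at 284, 299.7 and 285 CPM in WKY, at 156, 246 and 174 CPM in SHR, at 173, 169 and 192 CPM in ARB and at 167, 293 and 208 CPM in ARNI. ARNI replicate 2 lay within the WKY range and the slope passed (0.95, SE 0.16, adjusted p = 0.00621), but the change between SHR and WKY was just outside the threshold (log2 change -0.72, SE 0.21, adjusted p = 0.0513). Gyg1, the glycogenin primer on which a chain begins, was at 148 to 235 CPM over the 12 libraries and passed neither test.

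In glycogen breakdown, the phosphorylases and the subunits of phosphorylase kinase differed in direction. Pygm, the muscle phosphorylase, was at 1826, 1834 and 1738 CPM in WKY, at 1336, 1739.5 and 1367 CPM in SHR, at 1369.5, 1282 and 1618 CPM in ARB and at 1360.5, 1998 and 1415 CPM in ARNI (slope 0.82, SE 0.15, adjusted p = 0.00852). Pygb, the brain form, was at 476 to 551 CPM in WKY, 481 to 562 CPM in SHR, 488 to 499 CPM in ARB and at 499.9, 657 and 399.9 CPM in ARNI (slope 0.69, SE 0.17, adjusted p = 0.0249). Neither passed between SHR and WKY (adjusted p = 0.146 and 0.527). Pygl, the liver form, was at 3.67, 4.61 and 4.18 CPM in WKY and at 1.74, 2.05 and 2.98 CPM in SHR (log2 change -1.02, SE 0.25, adjusted p = 0.0349), and its values under both drugs are given with the fat markers below.

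Phosphorylase kinase activates phosphorylase when calcium or adrenergic signals rise. Phka1, its muscle regulatory alpha subunit, was at 29.5 to 31.1 CPM in WKY, at 49.3, 40.0 and 52.6 CPM in SHR, at 49.4, 54.1 and 35.6 CPM in ARB and at 54.9, 32.8 and 48.6 CPM in ARNI. It was above WKY throughout and least so in the 3 libraries with ventricular light chains (log2 change 0.51, SE 0.09, adjusted p = 0.0174; slope -0.53, SE 0.13, adjusted p = 0.0222). Phkg1, the catalytic gamma subunit, was at 10.9, 11.2 and 8.09 CPM in WKY, at 23.3, 17.1 and 24.3 CPM in SHR, at 17.7, 19.3 and 15.1 CPM in ARB and at 20.7, 16.4 and 14.1 CPM in ARNI. It was above WKY in all 9 libraries (log2 change 0.96, SE 0.17, adjusted p = 0.0158), with a slope of -0.07 (SE 0.23, adjusted p = 0.849). Phkb, the beta subunit, was at 95.3 to 101 CPM in WKY, at 68.7, 83.5 and 68.4 CPM in SHR, at 59.3, 67.7 and 53.0 CPM in ARB and at 68.4, 79.6 and 71.0 CPM in ARNI. It was below WKY in all 9 libraries (log2 change -0.54, SE 0.13, adjusted p = 0.0355), with a slope of 0.39 (SE 0.15, adjusted p = 0.110).

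**Figure D3:**
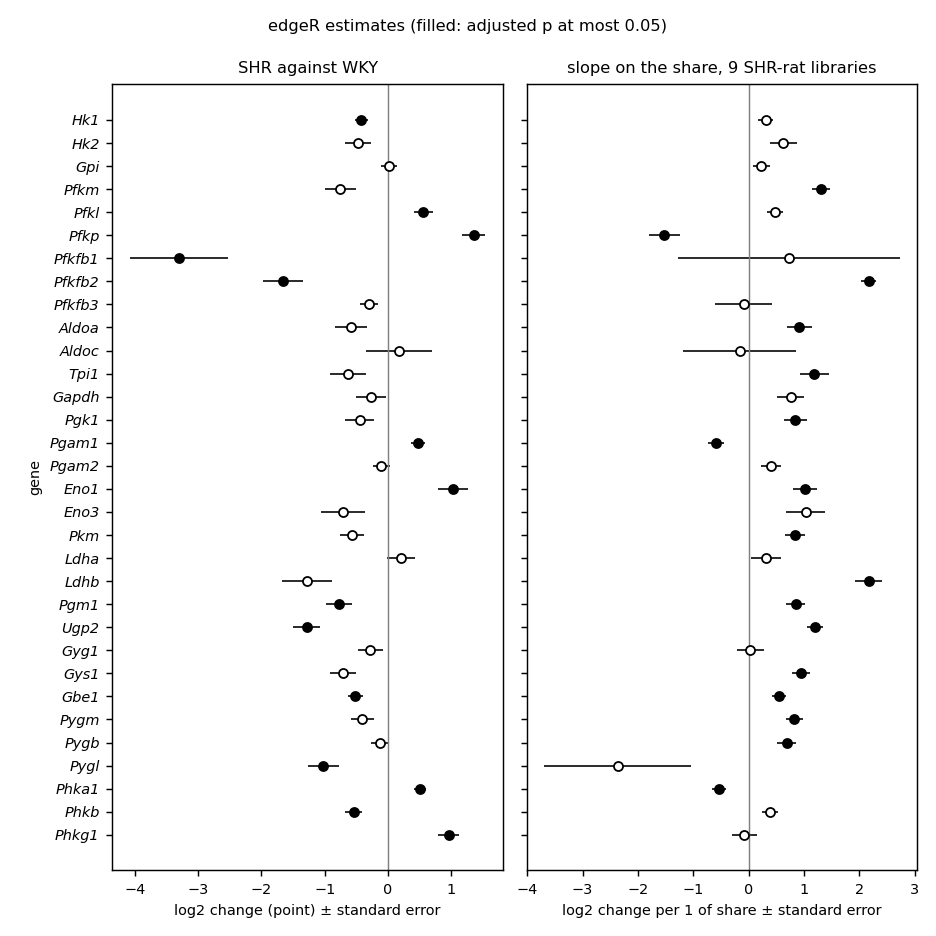
edgeR estimates for the 32 members (rows), with the log2 change of SHR against WKY on the left and the log2 slope on the ventricular share over the 9 libraries of SHRs on the right. Points are estimates, bars are 1 standard error and filled points passed at an adjusted p of at most 0.05. Most members lie left of 0 on the left and right of 0 on the right, and Eno1 lies right of 0 in both.

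Ratios of isoenzyme genes were taken within each library for 10 pairs, as the difference of log2(CPM + 1). The scale of the library cancels except for the 1 CPM added, which matters for genes at low levels. With 3 libraries against 3, the smallest p of an exact permutation test is 0.1, so no test was made, and the ratio is read against the spread of its group (SD, n = 3). The ratio of Eno1 to Eno3 was -0.34 ± 0.10 in WKY, 1.45 ± 0.26 in SHR, 1.45 ± 0.12 in ARB and 1.52 ± 0.24 in ARNI. All 9 libraries of SHRs lay between 1.15 and 1.73, above the WKY libraries. ARNI replicate 2, the only one of them with a ventricular share near that of WKY, was at 1.57.

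The ratio of Ldhb to Ldha was 2.42 ± 0.05 in WKY and 0.82 ± 0.58 in SHR. By library it was 0.30, 1.44 and 0.74 in SHR, 0.38, 0.35 and 1.28 in ARB and 0.32, 2.22 and 0.74 in ARNI. Both libraries of middle share thus lay between those of low share and ARNI replicate 2, which was below the WKY range of 2.36 to 2.45. The ratio of Pfkp to Pfkm was -4.66 ± 0.10 in WKY and -2.55 ± 0.74 in SHR. ARNI replicate 2 was at -4.37, nearer to WKY than any other library of SHRs but above the WKY range of -4.73 to -4.55. The ratio of Pfkl to Pfkm was -4.72 ± 0.19 in WKY, -3.37 ± 0.26 in SHR and -3.88 in ARNI replicate 2, also above the WKY range (-4.84 to -4.50).

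Pgam2 to Pgam1 was at 1.39 ± 0.11 in WKY and 0.82 ± 0.20 in SHR, Gys1 to Pygm at -2.63 ± 0.04 and -2.96 ± 0.14, and Pygb to Pygm at -1.79 ± 0.07 and -1.50 ± 0.13, each without overlap between these 2 groups. In ARNI replicate 2 these ratios were 1.30, -2.77 and -1.60. Pygb to Pygm was at -1.82 in ARNI replicate 3, within the WKY range of -1.87 to -1.73. The ratios Hk1 to Hk2 and Pygl to Pygm overlapped between WKY and SHR. Aldoc to Aldoa overlapped with 1 or 0.5 CPM added but not with 2 CPM added, where it was -9.47 to -9.02 in WKY and -8.92 to -8.36 in SHR.

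**Figure D4:**
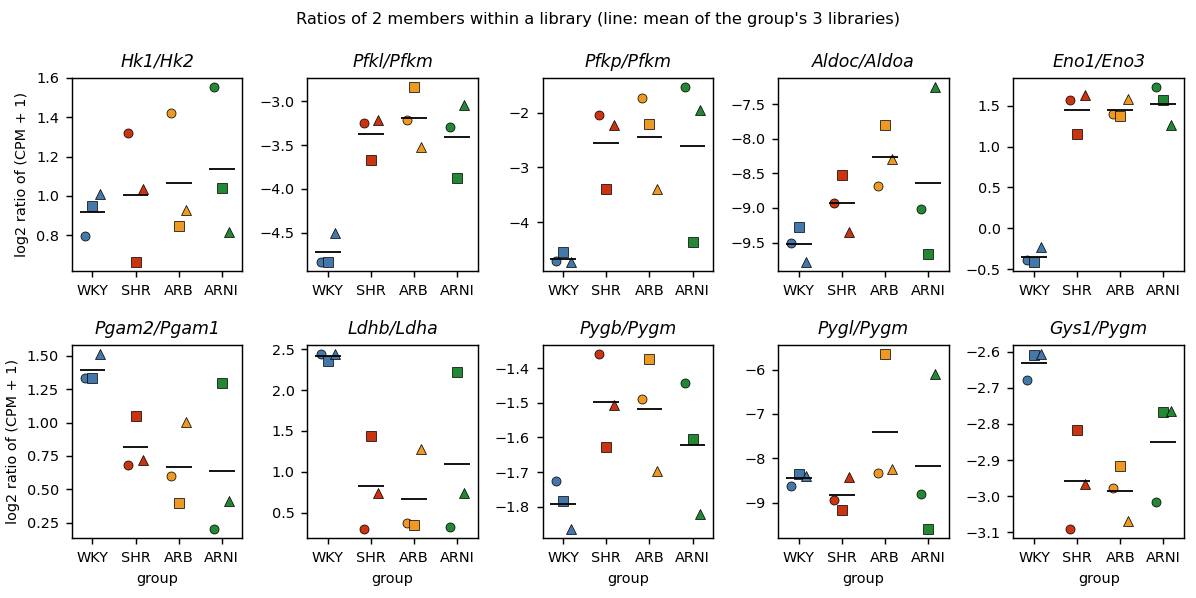
Log2 ratio of 2 members within a library (vertical axes) for 10 pairs, by group, with 1 point per library (circle, square and triangle for replicates 1, 2 and 3) and a line at the mean of 3 libraries. Eno1/Eno3 is between -0.42 and -0.23 in the WKY libraries and between 1.15 and 1.73 in all other libraries. For Ldhb/Ldha and Pfkp/Pfkm the square of the ARNI group lies nearer to the WKY libraries than any other point, but outside their range.

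ARNI replicate 2 allows a look at SHR and WKY at nearly the same ventricular share, but it is 1 treated library and gives no test. Its CPM was within 1.3-fold of the WKY mean for 25 of 32 members (78.1%, against 67.6% of all genes). It was more than 1.5-fold away for 4 members (12.5%, against 19.7%): Eno1 at 3.35 times the WKY mean, Pfkl at 1.96 times, Phkg1 at 1.62 times and Pygl at 0.379 times. Its ventricular cardiomyocyte markers were not those of WKY in full, since Myh7, the slow myosin heavy chain, was at 5907 CPM there and at 32130 to 32744 CPM in WKY.

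With the share as a covariate in 1 fit of all 12 libraries, Eno1 and Pfkl were the members called against WKY. Eno1 had log2 changes of 1.84 (SE 0.22, adjusted p = 0.00448) in SHR, 2.09 (SE 0.22, adjusted p = 0.00197) in ARB and 1.97 (SE 0.19, adjusted p = 0.00113) in ARNI. Pfkl had 0.96 (SE 0.18, adjusted p = 0.0416), 1.197 (SE 0.18, adjusted p = 0.0138) and 1.08 (SE 0.15, adjusted p = 0.0114). Of all genes, 0.927%, 1.88% and 0.844% were called in these contrasts. Since no SHR or ARB library had a share near that of WKY, these values extend a slope that ARNI replicate 2 largely sets. Pfkp, Pfkfb2 and Pgam1 were not called in the same fit between SHR and WKY. Their estimates, under the same limit, were 0.02, 0.09 and -0.04.

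Valsartan and sacubitril/valsartan were compared with saline in SHRs to ask whether treatment moved these enzymes. No member passed in ARB against SHR (31 tested, Pfkfb1 being below the filter on low counts), in ARNI against SHR (32) or in ARNI against ARB (32). In each comparison edgeR called 0 genes of all those tested (0%), and DESeq2 called 0 members and 3, 9 and 23 genes in that order. At an unadjusted p under 0.05 there was 1 member, Pygl, in ARB against SHR (1.61% of all genes) and 0 in ARNI against SHR (1.63%) and in ARNI against ARB (3.86%). Without SHR replicate 2, 3 members had an unadjusted p under 0.05 in ARB against SHR (2.32% of genes), and without ARNI replicate 2, 3 had one in ARNI against SHR (2.29% of genes).

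Log2 changes ranged from -0.29 to 2.24 in ARB against SHR, from -0.25 to 2.47 in ARNI against SHR and from -0.44 to 0.997 in ARNI against ARB. The largest changes against SHR were that of Pygl in ARB and that of Pfkfb1 in ARNI, both at low counts, and the largest in ARNI against ARB was that of Pfkfb2 (SE 0.64, adjusted p = 0.993). For Eno1 the ARB libraries (702 to 974 CPM) and the ARNI libraries (614 to 1043 CPM) overlapped the SHR libraries (523 to 897 CPM), and for Ldhb the same was true. In ARB against SHR the groups did not overlap for 1 member above, Pygl (2.4% of genes), and 1 below, Phkb (2.99%). In ARNI against ARB they did not overlap for Phkb above (3%) and Ldha below (7.52%), and in ARNI against SHR for 0 members (1.37% of genes above, 5.19% below). Chamber markers varied within each of these groups. With the share as a covariate in 1 fit of all 12 libraries, edgeR again called 0 members in ARB against SHR (0% of genes), ARNI against SHR and ARNI against ARB (0.00692% of genes in each of the last 2). In that fit 4, 2 and 2 members had an unadjusted p under 0.05 (5.36%, 6.41% and 13% of genes).

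Compared with WKY, which shares its libraries across these comparisons, ARB had 17 members called (7 higher, 10 lower; of all genes 28.5%, with 15.7% higher and 12.8% lower) and ARNI 0 by edgeR (0.271% of genes) and 4 by DESeq2 (5.11% of genes), with 9 by edgeR at an unadjusted p under 0.05 (19.1% of genes). Without ARNI replicate 2 the ARNI count was 20 (28.4% of genes), and without ARB replicate 3 the ARB count was 24 (45.6%). The ARB count was 8 without WKY replicate 1, 2 or 3 (12.7%, 11.5% and 12.4% of genes) and 11 without ARB replicate 1 (16.3%). Eno1 had log2 changes of 1.27 (SE 0.19, adjusted p = 0.00511) in ARB and 1.35 (SE 0.25, adjusted p = 0.115) in ARNI. Phkb had the smallest adjusted p of the members in ARB (log2 change -0.80, SE 0.09, adjusted p = 0.00263).

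ARB replicate 2 and ARNI replicate 3 held markers of fat. Adipoq, the adiponectin gene, was at 192 and 61.7 CPM there and at most 4.71 CPM in the other 10 libraries, and Plin1, the lipid droplet gene perilipin, was at 68.9 and 99.5 CPM against at most 7.29 CPM. Of 4 brown adipocyte markers, Ucp1, the uncoupling protein of brown fat, was at 15.6 and 182 CPM against at most 1.19 CPM, and Cidea was highest in ARNI replicate 3 (150 CPM) but at 100.4 CPM in ARB replicate 2, within the other libraries (56.8 to 119.8 CPM). Ppargc1a was at 110 and 109 CPM, also within the others (80.0 to 164 CPM), and Elovl3 was at most 0.0688 CPM. The brown list summed to 441 CPM in ARNI replicate 3 and to 226 CPM in ARB replicate 2, against 165 to 232 CPM in the others. Summed over 5 white adipocyte markers, the list was at 680.4 and 553 CPM in these libraries and at 86.0 to 381 CPM in the others. Not every gene of that list stood out. Fabp4 was at 336 and 367 CPM there, beside 268 to 359 CPM in WKY, 353 CPM in ARB replicate 3 and 341 CPM in ARNI replicate 2. Cfd was highest in ARB replicate 2 (67.6 CPM). In ARNI replicate 3 it was at 22.5 CPM, near SHR replicate 3 (20.4 CPM) and ARB replicate 3 (20.8 CPM). Lep was highest in ARB replicate 2 and then ARNI replicate 3. ARNI replicate 3 was also the highest in summed smooth muscle markers (682 CPM, against 101 to 204 CPM).

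Pygl was at 24.8 and 19.6 CPM in these 2 libraries and at 3.24 and 4.36 CPM in the other ARB libraries and 2.02 and 1.57 CPM in the other ARNI libraries. Pfkfb3 was highest in the same libraries (37.3 and 50.5 CPM, against 13.6 to 31.4 CPM), and Aldoc was highest there too (9.84 and 15.9 CPM), with ARB replicate 3 close behind at 9.59 CPM. Among libraries of low share, Pfkfb1 was at 5.06 and 5.36 CPM in these 2 and at most 0.339 CPM in the other 4. After ARB replicate 3, Aldoc was next highest in SHR replicate 2 (7.49 CPM). Summed over 6 neuron and glia markers, the list was at 180 CPM in ARNI replicate 3 and at 89.7 CPM in ARB replicate 2. It was at 70.8 CPM in SHR replicate 2, at 54.6 CPM in ARB replicate 3 and at 21.1 to 46.1 CPM elsewhere. The part of fat or nervous tissue in these values was not tested. With ARB replicate 2 and ARNI replicate 3 left out, a choice made after seeing the data, 18 members passed on the share (22.4% of genes). Of 8 skeletal muscle markers, Myh1, Myh2, Myh4, Actn3, Tnni2 and Mylpf were at most 1.12 CPM in every library and Tnnt3 was at 0.885 to 5.83 CPM, highest in ARNI replicate 3 and then ARB replicate 2. Ckm, the creatine kinase that heart muscle also makes, was at 626 to 3210 CPM.

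**Figure D5:**
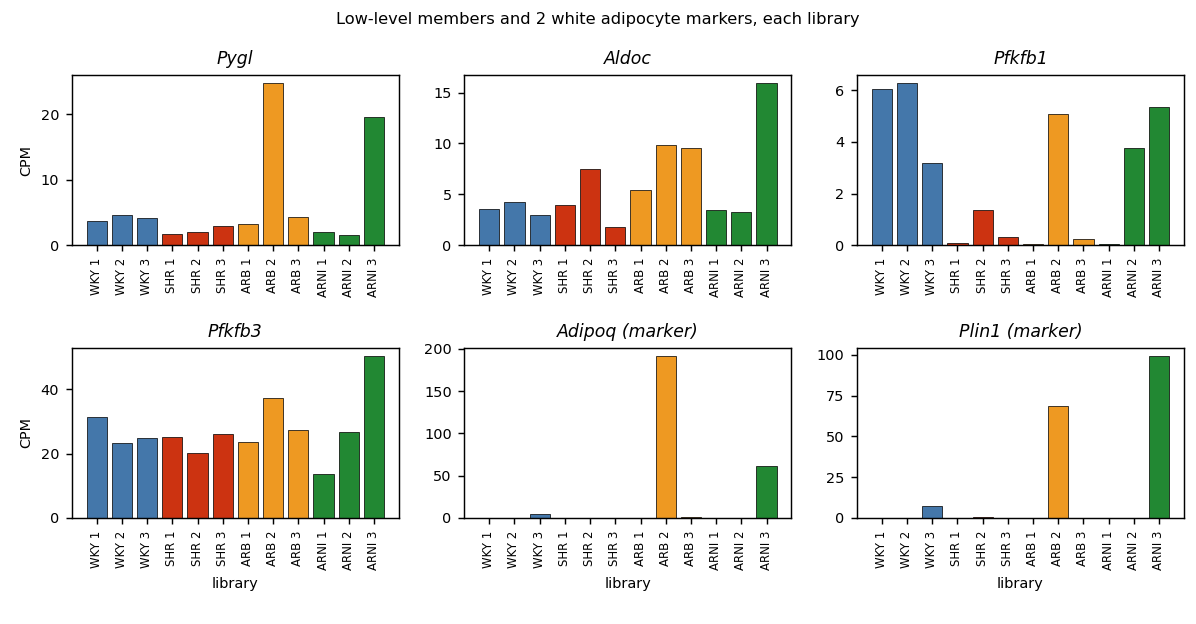
CPM (bars, from 0) in each of the 12 libraries for 4 members at low levels and for the adipocyte markers Adipoq and Plin1. Both markers stand out in ARB replicate 2 and ARNI replicate 3, where Pygl is at 24.8 and 19.6 CPM.

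The 44 other genes of the pathway on the written list, such as transporters, minor isoenzymes and regulators, were tested in the same fits. Between SHR and WKY 11 of the 35 that passed the filter were called (4 higher, 7 lower), and 13 of 36 were called on the share (8 higher, 5 lower), beside the 20.6% and 22.4% of all genes given above. Ppp1r3c, a glycogen-targeting subunit of protein phosphatase 1, was at 266 to 301 CPM in WKY and at 154, 171 and 207 CPM in SHR (log2 change -0.83, SE 0.13, adjusted p = 0.0101). Gaa, the lysosomal glucosidase that degrades glycogen, was at 178 to 182 CPM in WKY and at 129 to 152 CPM in SHR (log2 change -0.52, SE 0.09, adjusted p = 0.0133).

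Slc2a4, the insulin-responsive glucose transporter GLUT4, was at 548 to 579 CPM in WKY, at 331, 542 and 275 CPM in SHR and at 616 CPM in ARNI replicate 2, with a slope of 1.41 (SE 0.20, adjusted p = 0.00392). Slc2a12, a further glucose transporter, Ldhd, the D-lactate dehydrogenase, Pgp, phosphoglycolate phosphatase, and Fbp2, the muscle fructose bisphosphatase, also rose with the share, with slopes of 1.32 (SE 0.17), 1.66 (SE 0.19), 0.92 (SE 0.17) and 4.84 (SE 0.94) and adjusted p of 0.00303, 0.00232, 0.00912 and 0.0105. Fbp2 was at most 2.64 CPM in any library. Slc2a1, the widespread glucose transporter GLUT1, was at 30.0 to 32.6 CPM in WKY and at 34.9, 43.8 and 10.5 CPM in SHR, and passed neither test.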

How the data were processed

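Per the labels and the methods of the study, poly(A) RNA of rat left atrium was sequenced as single-end reads of 50 bases, filtered with SOAPnuke and aligned with HISAT2 (2.0.4) and Bowtie2 (2.2.5). The submitters' processing notes name build Rnor_6.0, and the annotation is not given in the sources used here. The authors deposited expected counts per gene, as RSEM estimated them, without normalization. RSEM shares reads that match several genes, and 9 of the 32 members had values that were not whole in at least 1 library (tolerance 1e-06), Gapdh, Aldoa, Tpi1 and Pkm among them. A further 2 deposited columns hold the authors' own comparison of SHR with WKY, its log2 fold change and p-value, and were not used.

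Expected counts were rounded, filtered with filterByExpr, scaled by TMM (factors 0.906 to 1.11) and tested with edgeR (4.0.16, R 4.3.3) using the 6 libraries of both groups, or the 9 libraries of SHRs for the ventricular share. P-values were adjusted over all genes tested by the Benjamini-Hochberg method, two-sided, and standard errors come from the F statistic. CPM values are not scaled by TMM. All members were named, and of 44 other pathway genes the 8 called with the smallest p (Slc2a4 among them) and Slc2a1, except that 1 of those 8 is not reported here. The members and lists were chosen with earlier results of these data known. Replicates of a group differed by more than sampling noise (chi-square per degree of freedom 4.03 to 231). Each library is 1 rat, so the spread between rats cannot be told apart from that between tissue pieces or library preparations. Same-numbered libraries were checked for pairing by the correlation of their deviations from the group means. All 3 pairs exceeded 0.1 only for ARNI and SHR (0.592, 0.589 and 0.239), where the replicate block also gave 0 called members. Libraries of unlike number but middle or high ventricular share reached higher values. These were 0.614 for SHR replicate 2 and ARB replicate 3, and 0.685 for ARB replicate 3 and ARNI replicate 2. Alternatives were DESeq2 1.42.0, RLE scaling, no filter, 1 fit of 12 libraries, the share as covariate, the replicate block and leaving out libraries. The scripts were tested on simulated data. Python 3.11.15 was used with pandas 2.3.3 and matplotlib 3.10.9.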

Additional observations from a re-analysis of the deposited data

How the results depend on the processing

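The number of members called depended on the libraries in the fit. Between SHR and WKY it was 14, and it was 3 in 1 fit of 12 libraries, 2 with the share as covariate, 3 with the replicate number as a block, 6 with a log2 change of at least 1 required, and 0 to 24 when single libraries were left out. ARB against WKY gave 17, but 11 in 1 fit of 12 libraries, 2 with the covariate, 5 with the fold required and 8 to 24 when single libraries were left out. ARNI against WKY gave 0, but 4 with DESeq2, 2 in 1 fit of 12 libraries, 2 with the covariate and 0 to 20 when single libraries were left out. The slope on the share gave 17, but 7 with the replicate block, 7 with the fold required, 0 without ARNI replicate 2 and ARB replicate 3 together, and 6 to 19 when single libraries were left out. Over the same settings, without a fold required, the share of all genes called ran from 0.927% to 37.8%, 1.88% to 45.6%, 0% to 28.4% and 0.0276% to 28.7% in these fits. The replicate block changed no other count by over 1.5 times, and outside ARNI and SHR the numbers did not pair the libraries. For ARNI and SHR the numbers also match the libraries of highest share, so pairing by number cannot be told apart from the share. RLE scaling and leaving out the filter moved no count by over 1.5 times. With the share as covariate 5 called values changed sign: Pfkfb2 (0.092) and Pgam1 (-0.039) in SHR against WKY, and Pfkm (0.35), Eno3 (0.30) and Pgm1 (0.081) in ARB against WKY. The cause was not tested, beyond the share itself being the added term. Of 2888 single values recomputed, 2592 kept sign and side of the threshold (or were uncalled in both), 215 lost a call, 76 gained one and 5 reversed. Depth limits the members at low counts, chiefly Pfkfb1, whose lowest library held 1 count.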

Other observations

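All 32 members together took 2.47% to 2.58% of the counts of the WKY libraries. They took 1.94%, 2.46% and 1.62% in SHR replicates 1 to 3, 2.06%, 1.89% and 2.62% in ARB and 1.84%, 2.71% and 1.95% in ARNI. The 5 genes of glycogen synthesis summed to 1147 to 1183 CPM in WKY and to 649 to 1030 CPM in the 9 libraries of SHRs, without overlap. The 7 genes of lower glycolysis summed to 9889 to 10265 CPM in WKY and 7692 to 12518 CPM in the libraries of SHRs, which overlap. Most of the counts in that sum were those of Gapdh. Gys2, the liver glycogen synthase, was at 7.36 CPM in ARB replicate 2 and 4.68 CPM in ARNI replicate 3, the libraries with fat markers, and at most 0.158 CPM in the other 10. Hemoglobin and other erythroid markers summed to 3845 CPM in ARB replicate 3, to 1038 to 2167 CPM in WKY and to 245 to 1102 CPM in the remaining libraries. Their part in the values of the members was not tested.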
